A study of Mus musculus with 6 samples.

Results

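The 9 genes described here move glutamate and glutamine between and within the cells of the synapse. They are the vesicular glutamate transporters *Slc17a6*, *Slc17a7* and *Slc17a8*, the plasma membrane glutamate transporters *Slc1a1*, *Slc1a2*, *Slc1a3* and *Slc1a6*, the glutamine carrier *Slc38a5* and the glutamine synthetase gene *Glul*. They were chosen by gene name, out of 23212 gene names in the deposited transcript assembly, with earlier results of these data known. For *Slc1a6*, whose name is on 2 loci, the locus with more fragments on average over the libraries was used. Each of the 9 lay on a locus that carries no other gene name.

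RNA was measured in 6 libraries of whole mouse brainstem at postnatal day 21, 3 labelled *Hoxa5* cKO and 3 labelled *Hoxa5* control. The animals labelled cKO were *Hoxa5* flox/flox and carried a single copy of the CMV-CreERT2 transgene (CMV-CreERT2+/-). The animals labelled control were also *Hoxa5* flox/flox and lacked the transgene (CMV-CreERT2-/-). Both genotypes received tamoxifen on days 1 to 4 after birth, so the floxed allele and the drug are shared by all libraries. The CMV promoter is not restricted to a cell type, and each library is a pool of 3 brainstems, so a value is an average over 3 animals. The comparison asks which brainstem transcripts differ once *Hoxa5* has been inactivated after birth.

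At an excitatory synapse, glutamate is loaded into synaptic vesicles by a vesicular transporter, released, and cleared from the cleft by plasma membrane transporters, most of it into astrocytes. There glutamine synthetase converts it to glutamine, which system N carriers release and neurons take up and turn back into glutamate. *Slc17a6* (VGLUT2) is the main vesicular transporter of brainstem neurons. *Slc17a7* (VGLUT1) is the main one of cerebral cortex and cerebellar granule neurons, and neurons of the pontine and other precerebellar nuclei also use it.

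In mm10 coordinates, *Slc17a6* spans chr7:51618783-51671268 on the plus strand and *Slc17a7* spans chr7:45163921-45176139 on the plus strand, so both main vesicular transporters lie on chromosome 7. *Slc17a8* spans chr10:89574020-89621249 on the minus strand. *Slc1a1* spans chr19:28835166-28913960 and *Slc1a2* chr2:102658683-102790784, both on the plus strand, *Slc1a3* spans chr15:8634124-8710807 on the minus strand, and *Slc1a6* spans chr10:78780439-78814947 on the plus strand. *Slc38a5* spans chrX:8271392-8280176 and *Glul* chr1:153899945-153909714, both on the plus strand. Values are per locus, over all transcripts assembled on it.

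The libraries held 12034613 to 13202707 fragments. Fragments of the locus that holds *Hoxa5*, which also carries *Hoxa6* and 2700086A05Rik, did not follow the labels: they numbered 279, 57 and 63 in the libraries labelled cKO, against 202, 337 and 77 in those labelled control (log2 fold change -0.62, adjusted p = 0.893 by edgeR). On this joined locus *Hoxa5* alone cannot be told apart from its neighbours. The library labelled cKO replicate 1 was high and the library labelled control replicate 3 was low, so results are also given without these 2 libraries together where that alters a call or moves a value by over 1.5 times. The brainstem was checked by its genes, with 2523 to 3427 fragments of the glycine transporter *Slc6a5* in every library, while the forebrain gene *Emx1* had at most 3. Summed over 4 Y-linked genes, the library labelled cKO replicate 1 had 3 fragments and the other 5 had 1069 to 1734. *Xist* had 5326 to 6523 fragments in libraries labelled cKO and 4482 to 4576 in those labelled control, so the sex make-up differed between pools, and its part in the results below was not tested.

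All 9 genes passed the filter on low counts. Of these, 2 were called lower in libraries labelled cKO, *Slc1a6* and *Slc1a3*, and 0 were called higher, where a call is a Benjamini-Hochberg adjusted p under 0.05 from edgeR's quasi-likelihood test over all 21854 loci tested. Over all loci, 0.503% were called lower and 0.0275% higher, 0.531% in all. By the p before adjustment, again with 0.05 as the threshold, *Slc1a3*, *Slc1a6*, *Slc17a7* and *Slc38a5* were the 4 lower members and *Glul* the 1 higher member, where the shares over all loci were 4.03% and 2.91%. DESeq2 called 3 members, adding *Slc17a7*, where it called 0.585% of loci, and edgeR with no filter on low counts called 5, adding *Slc17a7*, *Slc38a5* and *Glul*, where it called 0.714% of loci. limma on log2(FPKM + 1) called no member and 0 of all loci, though 5 members and 1298 loci had an unadjusted p under 0.05 by limma. Without cKO replicate 1 and control replicate 3 together, edgeR called 3 members, *Slc17a7*, *Slc1a3* and *Slc1a6*. In that fit it called 161 of all loci, against 116 with all libraries. *Slc1a3*, *Slc1a6*, *Slc17a7* and *Slc38a5*, 4 of the 9, had all their libraries labelled cKO below all those labelled control in CPM, fragments scaled to library size, and *Glul* had all of them above. These patterns held for 6.54% and 5.61% of all loci. The median log2 fold change of the 9 genes was 0.03, beside 0.00 over all loci. Every pair of libraries of one genotype differed beyond counting noise over the loci, so none was counted as a duplicate.

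**Figure D1:**
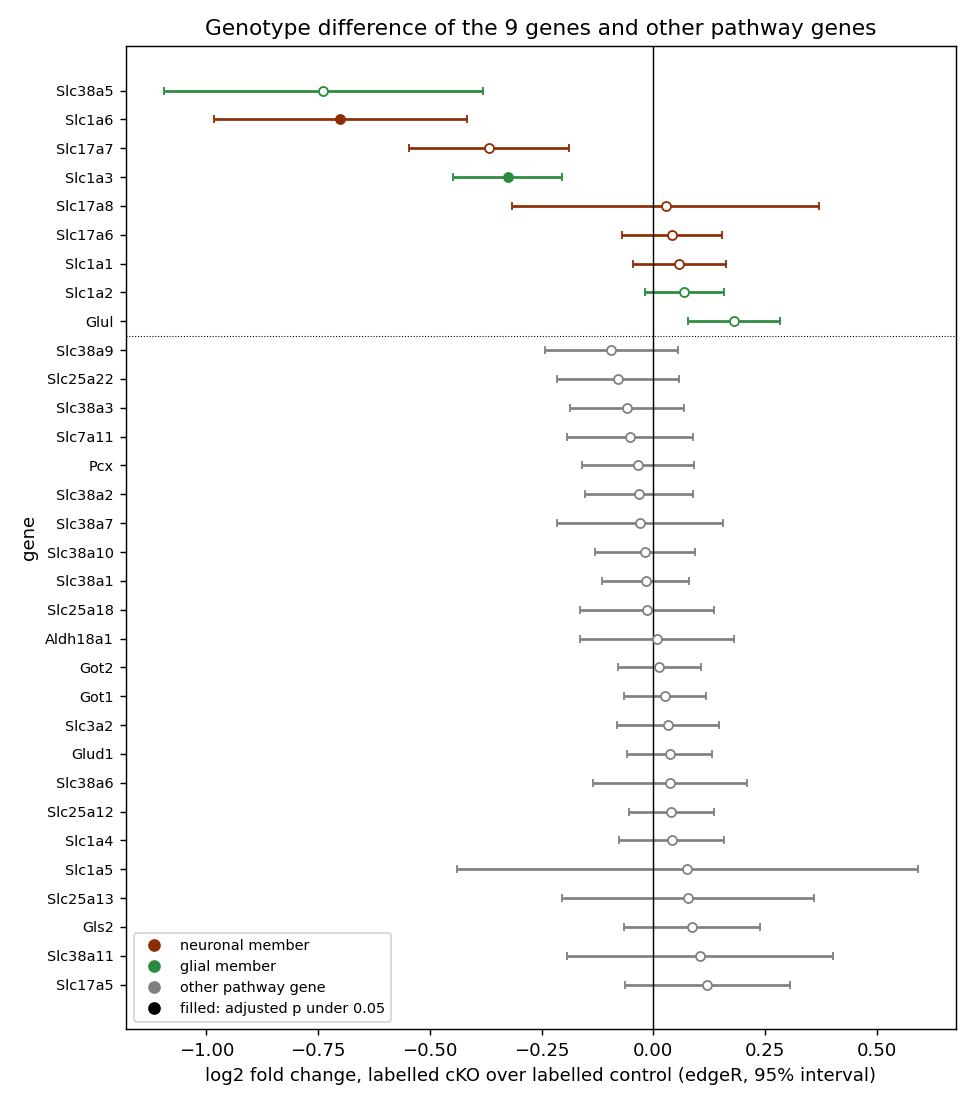
Log2 fold change of each gene, libraries labelled cKO over libraries labelled control, with its 95% interval from edgeR, for the 9 members (above the dotted line) and other genes of glutamate and glutamine metabolism. *Slc1a6* (-0.70) and *Slc1a3* (-0.33) are the filled points, and the intervals of all the other pathway genes shown include 0.

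The order of levels is given in FPKM, fragments scaled for both transcript length and library size, which allows genes of unequal length to be set side by side. *Glul* and *Slc1a2* stood far above the rest. *Glul* averaged 442 ± 33.7 FPKM in libraries labelled cKO and 391 ± 6.03 FPKM in those labelled control (SD, n = 3 each). *Slc1a2* averaged 321 ± 14.9 and 306 ± 8.20 FPKM on the same basis. The next gene, *Slc17a6*, was 4.52-fold below *Slc1a2* by the mean over all libraries, and *Slc17a8* was the lowest, at 1.43 ± 0.225 FPKM in libraries labelled cKO and 1.41 ± 0.247 FPKM in those labelled control. Between these came *Slc1a3*, *Slc17a7*, *Slc1a1*, *Slc1a6* and *Slc38a5* in falling order. Of the 8 pairs of neighbours in this order, *Slc17a6* and *Slc1a3*, and *Slc17a7* and *Slc1a1*, had ranges over the 6 libraries that overlapped, and the other pairs did not.

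**Figure D2:**
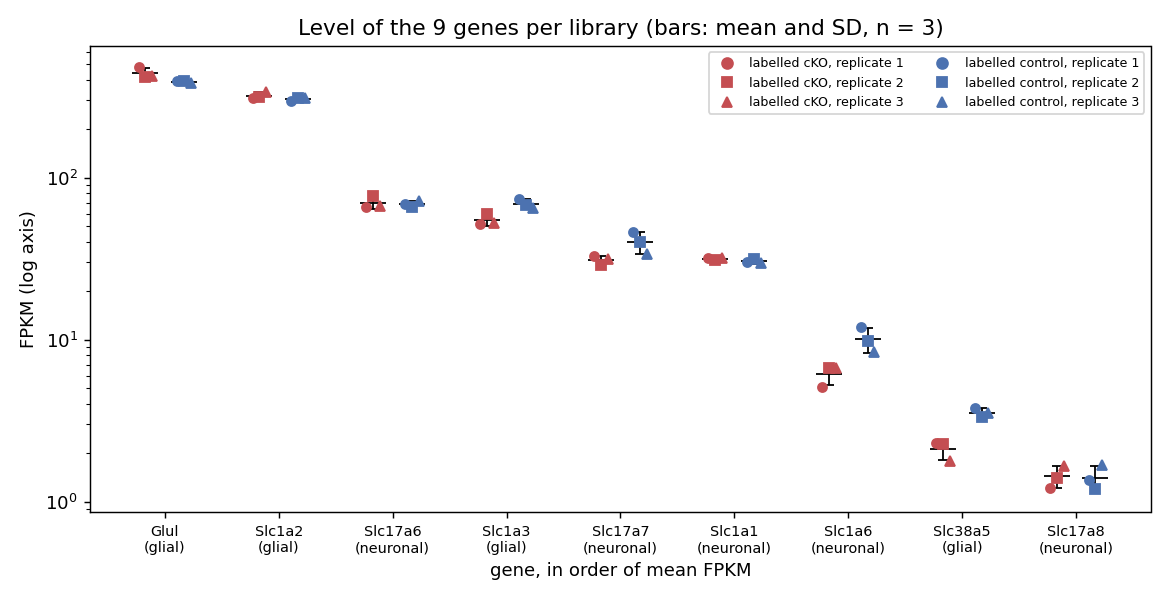
FPKM of each gene in each library on a log axis, with the mean and SD of each genotype (n = 3). The genes run from *Glul*, with means of 442 FPKM in libraries labelled cKO and 391 FPKM in those labelled control, to *Slc17a8*, with means of 1.43 FPKM in libraries labelled cKO and 1.41 FPKM in those labelled control.

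Of the vesicular transporters, *Slc17a6* was not called, and its genotypes overlapped. It had 3044, 3751 and 3211 fragments in the libraries labelled cKO, against 3128, 3056 and 3541 in those labelled control, which is 66.2, 76.9 and 67.1 FPKM against 68.3, 66.1 and 71.4 FPKM. The genotypes overlap, with cKO replicate 2 the highest of all. The log2 fold change was 0.04 (standard error 0.05, 95% interval -0.07 to 0.15, adjusted p = 0.939 by edgeR), and 0.10 without cKO replicate 1 and control replicate 3 together.

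*Slc17a7* was lower in every library labelled cKO, and its adjusted p missed the threshold. Fragments numbered 934, 928 and 974 in the libraries labelled cKO, against 1381, 1188 and 1086 in those labelled control, or 32.7, 29.0 and 31.3 FPKM against 46.4, 40.1 and 33.8 FPKM. The libraries labelled cKO lie close together, and control replicate 3 sits just above them. The log2 fold change was -0.37 (standard error 0.08, 95% interval -0.55 to -0.19, unadjusted p = 4.54e-04, adjusted p = 0.0675 by edgeR). Without cKO replicate 1 and control replicate 3, the libraries in which the joined *Hoxa5* locus goes against the label, it was -0.50, with an adjusted p of 0.00108 by edgeR. Without control replicate 1 it was -0.25, with an adjusted p of 0.506.

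*Slc17a8* (VGLUT3), which in the brainstem is known from serotonergic neurons, was the least abundant. It had 64, 78 and 91 fragments in the libraries labelled cKO, against 71, 63 and 95 in those labelled control, and the genotypes overlap. Its log2 fold change of 0.03 had a wide 95% interval, -0.32 to 0.37, so a change within those bounds was not detectable at this depth. Without cKO replicate 1 and control replicate 3 together it was 0.27, with an adjusted p of 0.689 by edgeR.

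The ratio of *Slc17a7* to *Slc17a6* within a library is free of library size. On the log2 FPKM scale it was -1.02, -1.41 and -1.10 in the libraries labelled cKO, against -0.56, -0.72 and -1.08 in those labelled control. Control replicate 3 lies among the libraries labelled cKO, so the genotypes overlap. The means were -1.18 ± 0.21 and -0.79 ± 0.27 (SD, n = 3 each), a difference of -0.39 with a two-sided exact permutation p of 0.2, where 3 libraries against 3 can give no p below 0.1. Without cKO replicate 1 and control replicate 3 together the difference was -0.62. The genotype differences of the 2 genes are therefore not shown to differ by this test. As a share of the 3 vesicular transporters' FPKM, *Slc17a7* made up 30.3% ± 2.95 in libraries labelled cKO and 36.3% ± 4.29 in those labelled control, and *Slc17a6* made up 68.3% ± 2.98 and 62.4% ± 4.07 (SD, n = 3 each).

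**Figure D3:**
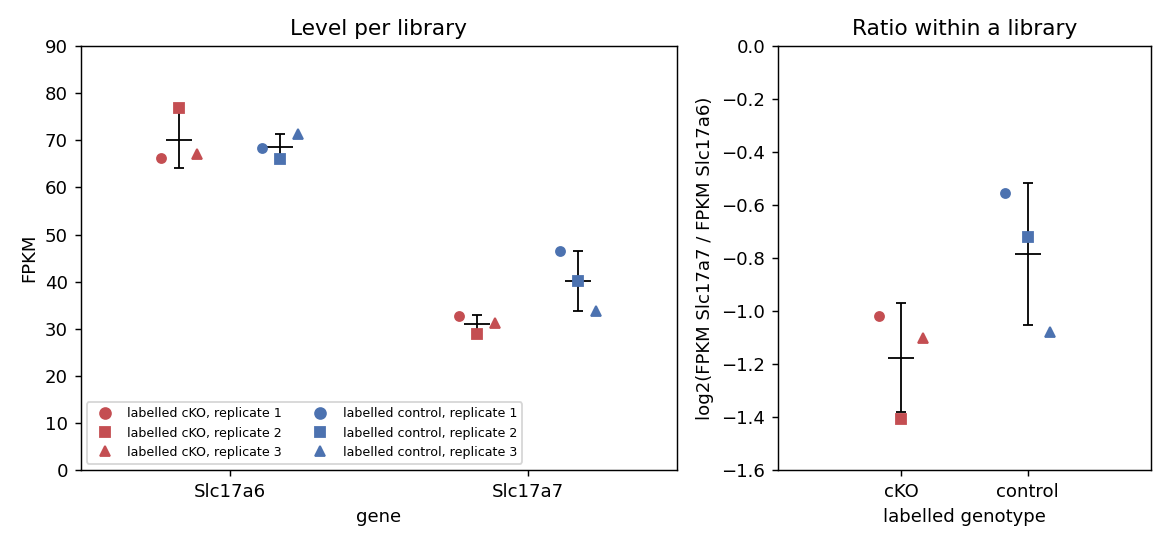
Left, FPKM of *Slc17a6* and *Slc17a7* in each library from 0, with mean and SD (n = 3). Right, the log2 ratio of the pair within each library, in which control replicate 3 (-1.08) lies between the libraries labelled cKO at -1.02 and -1.10.

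Of the 4 plasma membrane transporters, 2 were called. *Slc1a6* (EAAT4), a neuronal transporter best known from Purkinje cells of the cerebellum, fell in libraries labelled cKO. Fragments numbered 111, 164 and 155 in libraries labelled cKO, against 268, 222 and 207 in those labelled control, or 5.12, 6.72 and 6.68 FPKM against 11.9, 9.86 and 8.42 FPKM. The genotypes do not overlap, and cKO replicate 1 is the lowest and control replicate 1 the highest. The log2 fold change was -0.70 (standard error 0.13, 95% interval -0.98 to -0.42, adjusted p = 0.0227 by edgeR), and *Slc1a6* fell by 38.5%. The adjusted p was 0.176 without control replicate 1 and 0.0513 without control replicate 2. A single-exon locus on the opposite strand, also named *Slc1a6*, had 50, 58 and 65 fragments in libraries labelled cKO, against 49, 55 and 66 in those labelled control, and was not counted with the gene.

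*Slc1a1* (EAAT3), the more widely expressed neuronal transporter, was not called. It had 1422, 1483 and 1482 fragments in libraries labelled cKO, against 1355, 1424 and 1438 in those labelled control. Its log2 fold change was 0.06 (95% interval -0.05 to 0.16, adjusted p = 0.900 by edgeR), and 0.02 without cKO replicate 1 and control replicate 3 together. The log2 ratio of *Slc1a6* to *Slc1a1* was -2.64, -2.21 and -2.25 in libraries labelled cKO, against -1.35, -1.68 and -1.82 in those labelled control, and the genotypes do not overlap.

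*Slc1a3* (GLAST), the glutamate transporter of Bergmann glia that astrocytes elsewhere also express, was the other called gene. Fragments numbered 2716, 3347 and 2905 in libraries labelled cKO, against 3919, 3593 and 3710 in those labelled control, or 51.9, 59.4 and 52.8 FPKM against 74.1, 67.5 and 64.6 FPKM. Every library labelled cKO was below every library labelled control. The log2 fold change was -0.33 (standard error 0.06, 95% interval -0.45 to -0.20, adjusted p = 0.0125 by edgeR), and *Slc1a3* fell by 20.2%. The adjusted p was 0.131 without control replicate 1 and 0.0505 without cKO replicate 3.

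*Slc1a2* (GLT-1), the main astrocytic transporter of most of the brain, had 41600, 44599 and 47037 fragments in libraries labelled cKO, against 39769, 42085 and 45294 in those labelled control. The log2 fold change was 0.07 (95% interval -0.02 to 0.16, adjusted p = 0.834 by edgeR). In FPKM the libraries labelled cKO (312, 312 and 338) all lay above those labelled control (296, 311 and 310), by a margin smaller than the SD, and in CPM the genotypes overlap. The log2 ratio of *Slc1a3* to *Slc1a2* was -2.59, -2.39 and -2.68 in libraries labelled cKO, against -2.00, -2.20 and -2.26 in those labelled control, with no overlap and means that differ by -0.40. *Slc1a3* made up 13.3% ± 1.14 of the plasma membrane transporters' FPKM in libraries labelled cKO and 16.6% ± 1.23 in those labelled control, and *Slc1a2* made up 77.6% ± 1.25 and 73.7% ± 1.70 (SD, n = 3 each). The summed FPKM of the 4 transporters was 413 ± 14.5 in libraries labelled cKO and 415 ± 3.98 in those labelled control, and overlapped.

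The genes of the glutamine arm did not pass the threshold. *Slc38a5*, an X-linked system N carrier that exports glutamine, had 44, 48 and 36 fragments in libraries labelled cKO, against 74, 65 and 75 in those labelled control. The genotypes do not overlap, but the counts are small. Its log2 fold change was -0.74 (standard error 0.17, 95% interval -1.09 to -0.38, unadjusted p = 4.22e-04, adjusted p = 0.0650 by edgeR). *Glul*, the enzyme that makes glutamine in astrocytes, had 14920, 14260 and 14069 fragments in libraries labelled cKO, against 12526, 12560 and 13163 in those labelled control. Every library labelled cKO was above every library labelled control, and the log2 fold change was 0.18 (standard error 0.05, 95% interval 0.08 to 0.28, unadjusted p = 0.0017, adjusted p = 0.166 by edgeR). It was 0.11 without cKO replicate 1 and control replicate 3 together, with an adjusted p of 0.396 by edgeR.

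Neuronal and glial members were then set side by side. The neuronal members were the 3 vesicular transporters, *Slc1a1* and *Slc1a6*, and the glial members were *Slc1a2*, *Slc1a3*, *Slc38a5* and *Glul*. Each class held 1 called gene, so the direction of a call did not divide the classes. Summed FPKM of the glial members was 847, 794 and 816 in libraries labelled cKO, against 768, 777 and 763 in those labelled control, and of the neuronal members 137, 145 and 139 against 158, 149 and 145. The log2 ratio of neuronal to glial was -2.63, -2.45 and -2.56 in libraries labelled cKO, against -2.28, -2.38 and -2.40 in those labelled control, with means that differ by -0.19. This sum is led by *Glul* on the glial side, and the difference was -0.10 without *Glul* and -0.11 without *Slc17a7*, and -0.12 with CPM in place of FPKM.

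Markers of other cell types were read beside these genes. In bulk tissue, fewer cells of a type, less cerebellar tissue in a sample and less RNA per cell cannot be told apart. Of 7 markers of cerebellar granule neurons, which use *Slc17a7*, 5 were called lower, and their summed CPM was 213 to 240 in libraries labelled cKO and 395 to 670 in those labelled control. The list's median log2 fold change was -1.72. The 4 of smallest p were *Neurod1* (log2 fold change -1.94), *Fat2* (-1.64), *Cbln3* (-2.00) and *Gabra6* (-1.93), and no granule, Purkinje or Bergmann glia marker was at 0 in any library. *Calb2* (-0.15) and *Barhl1* (-0.10) of the granule list were not called. Of 8 Purkinje cell markers 5 were called lower, among them *Car8* (-1.64), *Itpr1* (-0.996), *Ppp1r17* (-1.88) and *Pcp2* (-1.81), at a list median of -0.84, with a summed CPM of 334 to 384 in libraries labelled cKO and 561 to 845 in those labelled control. *Pvalb* (-0.25), *Casq2* (-0.24) and *Skor2* (0.08) of the Purkinje list were not called. Of 5 Bergmann glia markers 2 were called lower, *Gdf10* (-0.81) and *Hopx* (-0.53), at a list median of -0.28, with a summed CPM of 577 to 602 in libraries labelled cKO and 605 to 641 in those labelled control. *Fabp7* (-0.28), *Sept4* (-0.07) and *Ptprz1* (-0.02) of that list were not called. Of the 5 tested markers of precerebellar and pontine neurons 2 were called lower, *Zic1* (-0.76) and *Etv1* (-0.56), with a summed CPM of 231 to 242 in libraries labelled cKO and 292 to 352 in those labelled control. *Nfib* (-0.23), *Barhl1* (-0.10, also in the granule list) and *Pou4f1* (0.02) of that list were not called. None of the 10 astrocyte markers was called by edgeR, where an unadjusted p under 0.05 was reached by 1 that was lower and 2 that were higher, and their summed CPM overlapped at 4240 to 4550 in libraries labelled cKO and 4449 to 4497 in those labelled control. Lists of oligodendrocyte, serotonergic, cholinergic, glycinergic, endothelial, pericyte and choroid plexus markers held 0 calls by edgeR, with 1 cholinergic and 1 choroid plexus marker higher at an unadjusted p under 0.05, and their mean levels overlapped between genotypes. Of 6 general neuron markers, 1 was called lower (*Rbfox3*, -0.30). The granule, Purkinje, Bergmann glia and precerebellar lists moved with *Slc1a6*, *Slc17a7*, *Slc38a5* and *Slc1a3*, and their part in those differences was not tested.

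**Figure D4:**
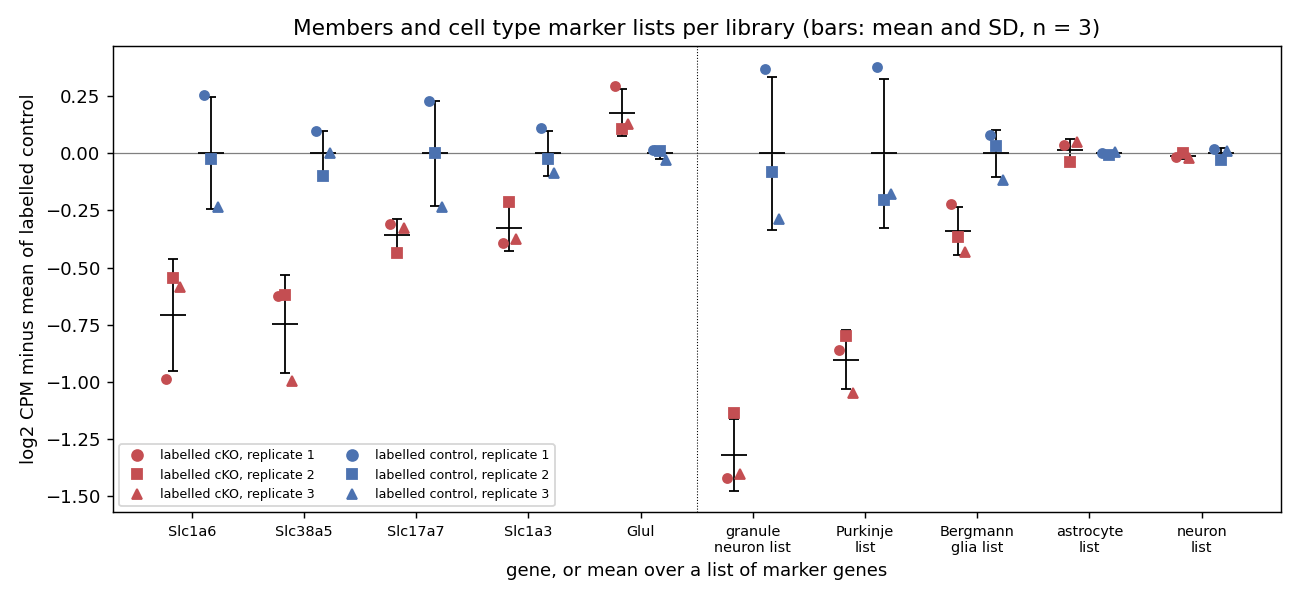
Log2 CPM minus the mean of the libraries labelled control, for 5 members and for the mean of 5 marker lists, with mean and SD (n = 3). *Slc1a6*, *Slc38a5*, *Slc17a7* and *Slc1a3* and the granule, Purkinje and Bergmann glia lists lie lower in libraries labelled cKO, and the astrocyte and general neuron lists overlap.

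The rest of the pathway was read from a list of 27 other genes, of which 24 passed the filter on low counts. None was called in either direction by edgeR or by DESeq2. None had an unadjusted p under 0.05 by edgeR, where 6.94% of all loci did. Their median log2 fold change was 0.02, and the 24 values ran from -0.09 (*Slc38a9*, a lysosomal amino acid carrier) to 0.12 (*Slc17a5*, the sialic acid carrier sialin). The 6 with the smallest p were these 2, *Slc25a22*, the mitochondrial glutamate carrier (-0.08), *Gls2*, a glutaminase (0.09), *Slc38a3*, the other system N carrier of astrocytes (-0.06), and *Slc25a12*, an aspartate and glutamate carrier of mitochondria (0.04).

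The genes whose profile over the 6 libraries was most like a member's were found by the root mean square difference of log2 CPM, after each gene's own mean was subtracted. Near *Slc1a6* came *Grm4* (0.06), a glutamate receptor gene, then *Camk4* (0.11) and *Zbtb46* (0.13), where the median over the candidate genes was 0.41. Near *Slc17a7* came *Appl2* (0.07), *Chd7* (0.07) and *Tmem170* (0.08), with a median of 0.23. Near *Slc38a5* came *Tnc* (0.12), *Cadps2* (0.12) and *Chn2* (0.12), with a median of 0.38. Near *Slc1a3* came *Gm5151* (0.03), *Dgkd* (0.03) and *Lhfp* (0.03), with a median of 0.19. Near *Slc17a6* came BC005764 (0.0096), *Pdxp* (0.0100) and 4632411B12Rik (0.015), with a median of 0.10. Near *Glul* came *Fastkd1* (0.022), 2210012G02Rik (0.022) and *Sdc4* (0.023), with a median of 0.13. These are descriptions over 6 libraries that share the genotype difference, and carry no test.

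Of the 9 members, 3 begin in the deposited assembly at the first start that RefSeq lists, *Slc17a7*, *Slc1a3* and *Slc17a8*, so the 250 bases before it can be read without sequence of the assembled transcript. They are shown 5′ to 3′ on the strand of the gene, from RefSeq on GRCm38.p6, the build of mm10, with TAAT on either strand, the core motif of homeodomain proteins such as the HOX family, in capitals.
*Slc17a7*, chr7:45163671-45163920, plus strand: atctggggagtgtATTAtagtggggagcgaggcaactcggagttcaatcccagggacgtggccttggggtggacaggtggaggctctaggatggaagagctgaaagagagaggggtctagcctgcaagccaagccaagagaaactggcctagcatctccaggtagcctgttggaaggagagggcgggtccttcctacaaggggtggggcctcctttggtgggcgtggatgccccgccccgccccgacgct
*Slc1a3*, chr15:8710808-8711057, minus strand: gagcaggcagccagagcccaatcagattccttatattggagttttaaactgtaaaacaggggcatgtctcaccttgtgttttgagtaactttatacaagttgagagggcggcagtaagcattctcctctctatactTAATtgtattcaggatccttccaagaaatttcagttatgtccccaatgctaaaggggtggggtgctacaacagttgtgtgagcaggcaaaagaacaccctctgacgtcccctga
*Slc17a8*, chr10:89621250-89621499, minus strand: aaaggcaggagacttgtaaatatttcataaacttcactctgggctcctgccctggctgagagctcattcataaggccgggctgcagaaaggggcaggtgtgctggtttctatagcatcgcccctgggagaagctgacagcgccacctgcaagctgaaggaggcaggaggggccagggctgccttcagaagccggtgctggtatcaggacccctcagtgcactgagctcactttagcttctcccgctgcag
The windows of *Slc17a7* and *Slc1a3* held 1 TAAT each on either strand and that of *Slc17a8* held 0. Over the first listed window of all 9 members, 3 held TAAT, those of the called *Slc1a3* and of *Slc17a7* and *Slc17a6*, which were not called. The window of the called *Slc1a6* held 0. Of 32851 promoter windows of that length, 54.9% held at least 1. None of these 9 first listed windows held the motif TGATNNAT on either strand, which 7.68% of windows held. A further listed window of *Slc17a6* held 4 TAAT and 1 TGATNNAT, and a further one of *Slc17a8* held 4 TAAT. The first listed starts of *Slc1a2* and *Slc17a6* lie 47755 and 3047 bases from their assembled starts. A match describes the letters and shows no binding.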

How the data were processed

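The authors called bases with CASAVA 1.6, aligned reads to mm10 with TopHat2 2.0.9, assembled transcripts with Cufflinks 2.2.0 and quantified loci with Cuffdiff, per the labels. The deposited table holds whole fragment counts and FPKM, scaled by Cuffdiff, for 34632 loci and 6 libraries, and the deposited assembly gives other values, the coordinates and gene names. Whether strand was used in counting is not given in the sources used here. Replicates were named 1 to 3 within a genotype in the table's order, and which pool each is was not stated. The pools of a genotype were separate animals.

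Counts were normalized by TMM, filtered with filterByExpr and tested with edgeR 4.0.16 in R 4.3.3, leaving 21854 loci, and called at a Benjamini-Hochberg adjusted p under 0.05. CPM was computed on library sizes after TMM, and log2 CPM added a prior count of 2. Ratios and sums used FPKM. The ratio of 2 genes was compared by exact permutation in Python 3.11.15. The pipeline was tested on simulated data. Alternatives were DESeq2 1.42.0, limma 3.58.1 on log2(FPKM + 1) and log2(FPKM + 0.1), other scalings and filters, CPM ratios, left-out libraries and a replicate block.

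All 9 members were named, with the 6 other pathway genes of smallest p, up to 4 genes of smallest p from each marker list that parted by genotype, and the 3 nearest profiles of 6 members. *Rbfox3*, *Slc6a5*, *Emx1*, *Pou4f1*, *Calb2*, *Pvalb*, *Casq2*, *Skor2* and *Ptprz1*, and *Barhl1* in the granule list, were named after their values were seen. Some genes of the lists are not reported here by name. The members and lists were chosen with earlier results of these data known.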

Additional observations from a re-analysis of the deposited data

How the results depend on the processing

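Of 135 values of the 9 members under the alternatives, 114 kept direction and call, 17 changed call and 4 changed sign, all near 0: *Slc17a6* at -0.018 without cKO replicate 2 (-0.018 to 0.073 with a library left out), and *Slc17a8* (-0.096 to 0.17) at -0.096 without cKO replicate 3, -1.53e-04 without control replicate 1 and -0.076 without control replicate 2. Of the 9 members, 2 were called in the reported fit, 3 by DESeq2, 5 with no filter on low counts, and 0 by limma on log2(FPKM + 1) and on log2(FPKM + 0.1), and from 0 to 3 with a single library left out (0 without control replicate 1, 1 without cKO replicate 3 or control replicate 2). Over all loci, against 116, no filter gave 221, at least 50 fragments in 3 libraries gave 76, limma gave 0 and 1, and a single library left out gave 44 (without control replicate 1) to 126, and 65 without cKO replicate 3. The cause was not tested. The neuronal to glial difference was -0.10 without *Glul* and -0.11 without *Slc17a7*, against -0.19, and -0.24 to -0.15 with a library left out. The *Slc17a7* to *Slc17a6* difference ran from -0.54 to -0.27 with a library left out. *Slc17a7*, not called in the reported fit, had an adjusted p of 0.0208 by DESeq2, 0.0472 with library size alone, 0.00308 with no filter, 0.0432 without cKO replicate 1 and 0.00243 without control replicate 3.

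Same-number correlations between libraries of the 2 genotypes were 0.06, -0.22 and 0.05, and different-number ones ran from -0.17 to 0.19. From 3 libraries a genotype, these values cannot settle whether the replicate numbers pair the libraries. With the number as a block, 3 members and 130 loci were called, none of the other pathway genes were, *Slc17a7* had an adjusted p of 0.0250 by edgeR, and the *Slc17a7* to *Slc17a6* difference was -0.39 with an exact paired p of 0.25. Depth limits *Slc38a5* and *Slc17a8*, at under 100 fragments a library. With 3 pools a genotype, p-values set the genotype difference against the spread between pools, not between animals. In edgeR that spread is estimated partly from other loci.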
